A study of Rattus norvegicus with 24 samples.

Results

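Gene expression in the nucleus accumbens (NAc) was compared between F2 pups of the in utero oxycodone lineage (F2 IUO) and F2 pups of the saline lineage (F2 SAL). The comparison used the 4 F2 IUO and 4 F2 SAL libraries, 8 of the 24 in the series, chosen by their titles. Of 23950 genes in the files, 13574 reached 1 FPKM (fragments per kilobase of transcript, scaled to the size of the library) in at least 4 of the 8 libraries. Of these, 11951 were protein-coding and not Y-linked, and they are described here. All pups were untreated Sprague Dawley rats taken at postnatal day 14. In the F2 IUO lineage, the F0 grandmothers had received oxycodone by oral gavage, starting at 10 mg/kg/day for 5 days and rising by 0.5 mg/kg/day over 10 days to 15 mg/kg/day. Their dosing went on through mating, gestation and birth until weaning. The F1 mothers had therefore met the drug only before birth and through milk, and were bred undosed with males from outside the experiment. The F2 SAL pups came from the saline control lineage. Each replicate was from a separate litter, pups were taken at random as male or female, and the labels do not give the sex of each pup.

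Oxycodone is an opioid that acts mainly on the mu receptor, a receptor coupled to an inhibitory G protein. The NAc is the ventral part of the striatum and a centre of reward and motivation. Most of its neurons are GABAergic projection neurons, which carry either the D1 or the D2 dopamine receptor and signal through a striatal form of the stimulatory G protein, adenylyl cyclase and DARPP-32. Interneurons, glia, microglia and vessels make up the rest. The tissue is dissected next to cortex, septum and ventricle, so the lists of genes below also hold markers of those neighbours.

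Several features of the libraries move with the groups and stand before the results. F2 IUO 1 held a summed choroid plexus signal of 12653 FPKM over 20 marker genes, against 52.4 to 142 in the other 7 libraries. Its transthyretin gene, Ttr, was at 12103 FPKM. F2 IUO 4 had the lowest mean correlation with the others (0.923, the rest 0.935 to 0.949), the highest FPKM sum (709207, the rest 594928 to 666121) and the most genes listed at 0 (7532, the rest 5243 to 6892). F2 IUO 1 and F2 IUO 4 also leaned to short genes, with Spearman correlations of -0.23 and -0.34 between gene length and a gene's deviation from its median over the 8 libraries. F2 SAL 3 leaned to long genes (0.31). The summed level of 7 Y-linked genes was 30.5 to 36.9 FPKM in F2 IUO 2, 3 and 4, and 0.03 to 2.57 FPKM in F2 IUO 1 and all 4 F2 SAL libraries. A difference of lineage and a difference of pup sex, as far as these Y-linked levels mark it, cannot be told apart in these 8 libraries. The covariates used below do not separate them. With the Y-linked covariate the lineage difference rests mostly on F2 IUO 1, whose Y-linked level lay with the controls. In that fit the choroid plexus list had 5 rises and a median of 2.87, against none and 0.73 without the covariate. Every striatal marker on the list of 30 was above 0 in all 8 libraries. The same held for every cortex excitatory neuron and astrocyte marker listed, so this does not show how much of each sample was NAc. In tissue of this kind, fewer cells of a type and less RNA per cell cannot be told apart.

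A gene was called when its limma p was under 0.05 before adjustment and its mean FPKM differed at least 1.5-fold, the limits the study also set. This criterion called 316 of the 11951 genes, 2.64% of them. There were 109 higher in F2 IUO (0.912%) and 207 lower (1.73%). No gene passed after Benjamini-Hochberg adjustment over all 13574 genes fitted, and the smallest adjusted p from limma was 0.344. Before adjustment 1022 genes (8.55%) had a p under 0.05, and the 4 libraries of each group did not overlap for 649 genes (5.43%), 159 of them among the called genes. Each call below is therefore an unadjusted one, and a rise or a fall means that the criterion was met. Over all 13574 fitted genes 455 met it, and in data simulated without any change 282 of 13574 (2.08%) did. The simulation drew each gene independently and held none of the library-wide features described above. It therefore cannot show how many calls such features alone would give, and no excess is read from these counts. Without F2 IUO 1 the criterion called 92 higher and 232 lower, without F2 IUO 4 153 higher and 149 lower, and without both 115 higher and 136 lower, of which 122 genes were among the 316. With the Y-linked level as a covariate it called 90 higher and 134 lower, and with all 24 libraries in one fit 91 higher and 257 lower. Rescaling by the median of ratios gave 151 higher and 185 lower, so that 55.1% of calls were lower instead of 65.5%.

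Most of the called changes were modest and in genes of low or middle level. The higher genes had a median rise of 0.76 on the log2(FPKM + 0.1) scale and a median level of 6.81 FPKM, and 8 of the 109 lay at 100 FPKM or above. The lower genes had a median fall of 0.79 and a median level of 3.58 FPKM, and 3 of the 207 lay at 100 FPKM or above. The genes nearest the fold limit had ratios of 1.504 inside and 1.496 outside it for rises, with no test attached. Long genes were more often lower. Among genes up to 10000 bases long, 44 of 2968 rose and 29 fell, whereas among those over 100000 bases, 11 of 1793 rose and 53 fell. Across the 11951 genes the Spearman correlation between gene length and the difference was -0.24, a description over genes that share libraries.

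**Figure D1:**
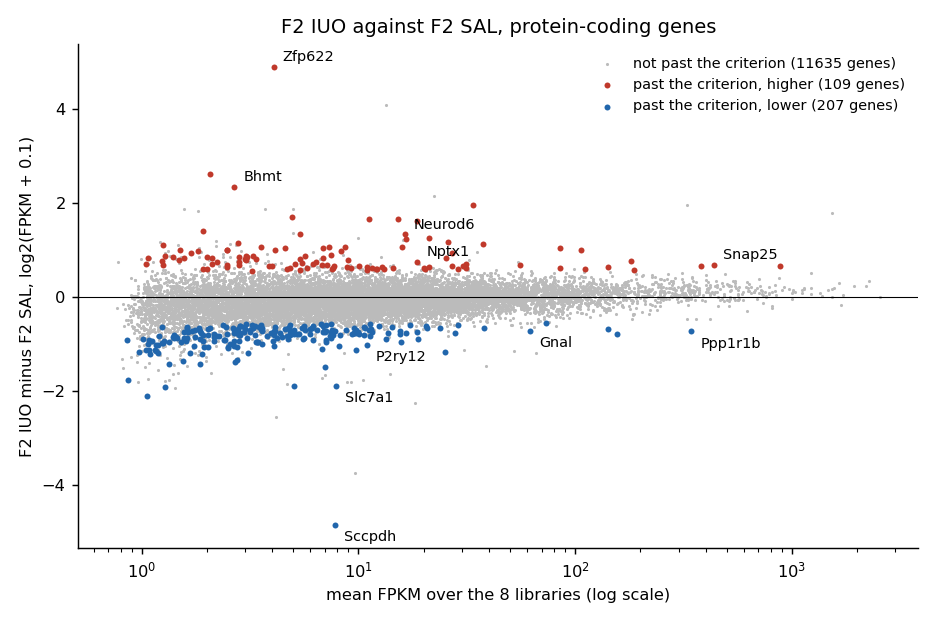
Difference between F2 IUO and F2 SAL on the log2(FPKM + 0.1) scale (vertical) against the mean FPKM over the 8 libraries (horizontal, log scale), 1 point per protein-coding gene. Red points are the 109 genes past the criterion and higher, blue points the 207 lower, grey points the rest, and the labelled genes are described in the text.

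The called genes were read through lists of cell type markers and functions, which held 766 of the tested genes and 58 of the 316 called. Over all tested genes 2.64% were called, 0.912% higher and 1.73% lower. The lists were chosen with earlier results of these data known, so their counts describe the calls and are no test against that share. The cortex excitatory neuron list had the most rises (7 of 22, none lower). The striatal projection neuron list (5 of 29), the microglia and macrophage list (5 of 22) and the endothelium and pericyte list (5 of 29) had the most falls, with none higher. The median difference over all 11951 genes was -0.06, and 58.4% of genes were below 0. Against that, the list medians were 0.43 for cortex, -0.39 for striatal projection neurons, -0.28 for microglia and -0.29 for endothelium. The lists of AMPA, NMDA and kainate receptors, postsynaptic density, astrocyte, myelin, septum, choroid plexus, ependyma, interferon and antigen presentation, extracellular matrix, circadian clock, cholesterol synthesis, neurotrophins, DNA methylation and histone deacetylation, and replication-dependent histones had no called gene. With 5 to 29 tested genes each, lists of this size would hold 1 called gene or none at the background share, so these zeros say little. Of the 56 genes annotated to circadian rhythm in the files 1 rose and 5 fell, and of 114 annotated to the extracellular matrix 1 rose (Nov) and 4 fell (Fn1, Eln, Col18a1, Ssc5d).

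**Figure D2:**
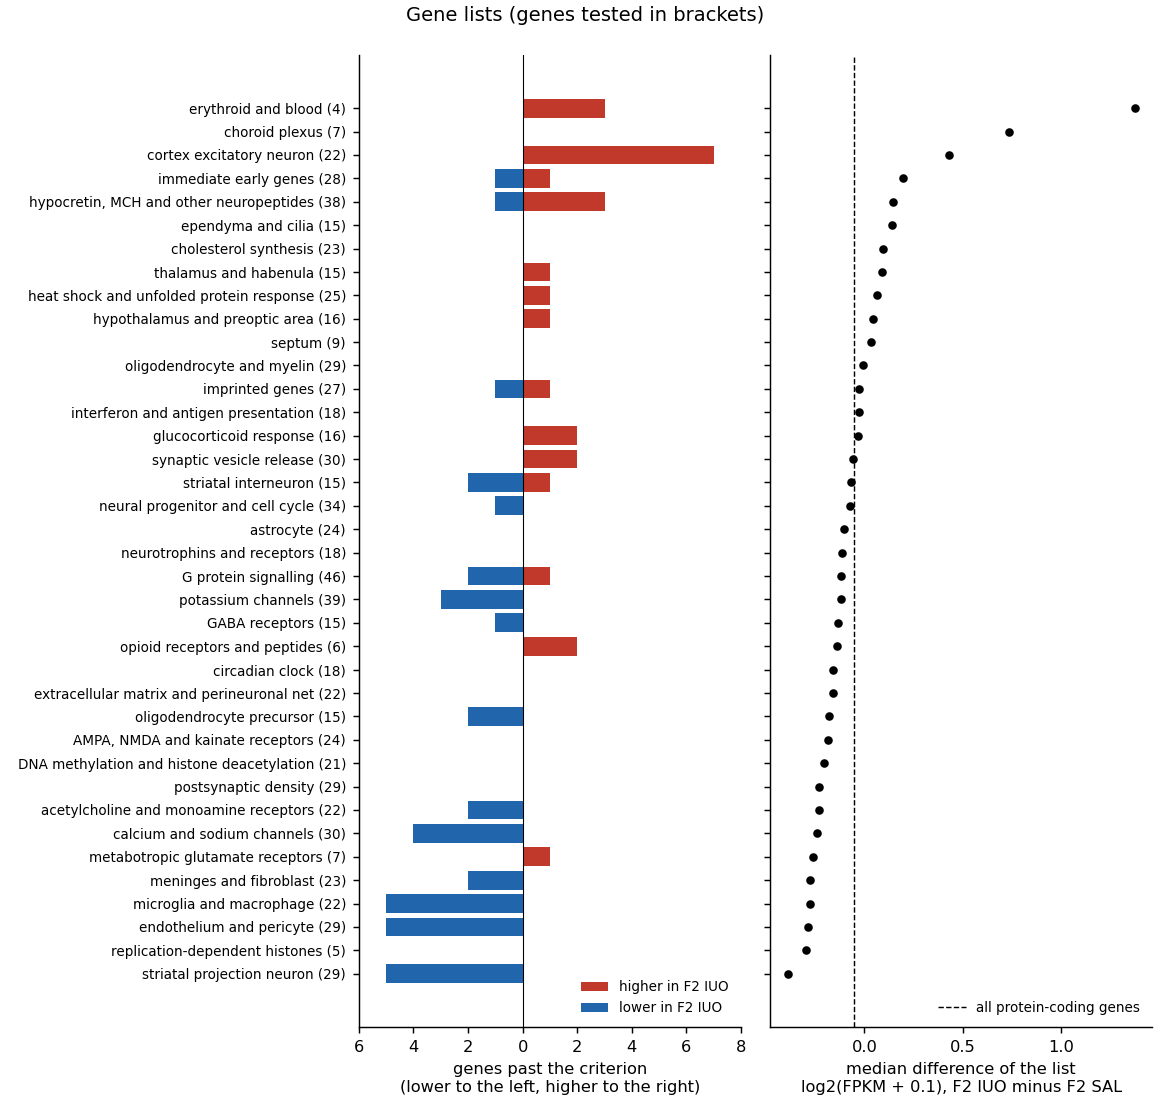
Number of genes past the criterion in each list (left, lower to the left and higher to the right, number tested in brackets) and the median difference of the list on the log2(FPKM + 0.1) scale (right, dashed line: all protein-coding genes). The cortex excitatory neuron list has 7 higher and none lower, and the striatal projection neuron list, at the bottom, has 5 lower and none higher.

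The genes that rose from the cortex list are those of glutamatergic neurons of the forebrain mantle. Neurod6, a bHLH transcription factor of cortical excitatory neurons, was at 30.1, 28.6, 17.8 and 17.0 FPKM in F2 IUO 1 to 4, and at 8.43, 14.3, 7.96 and 6.56 FPKM in F2 SAL 1 to 4. The groups did not overlap, and F2 IUO 1 and 2 were the highest. The means were 23.4 ± 6.92 and 9.31 ± 3.41 FPKM (SD, 4 libraries each), a rise of 1.33 ± 0.27 (SE) on the log2 scale (limma adjusted p = 0.377). Nptx1, neuronal pentraxin 1, which gathers AMPA receptors at excitatory synapses, was at 21.8, 29.5, 24.5 and 18.7 FPKM against 13.5, 14.3, 14.8 and 12.8 FPKM. These groups did not overlap either, and its rise was 0.75 ± 0.15 (limma adjusted p = 0.374). Both genes met the criterion without each of the 8 libraries and without F2 IUO 1 and 4 together, and both missed it in the fit of all 24 libraries, where the differences were the same and the spread was pooled over 6 groups.

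Of the other rises on the cortex list, 4 are described here, and their libraries overlapped. Fezf2, which specifies deep-layer projection neurons, was at 25.1, 20.6, 13.5 and 5.88 FPKM against 5.32, 13.9, 3.43 and 1.5 FPKM. Emx1, the homeobox gene that marks the dorsal telencephalon, averaged 2.46 ± 0.93 against 1.16 ± 0.34 FPKM. In both genes F2 IUO 1 was the highest library, F2 IUO 4 the lowest of its group, and F2 SAL 2 the highest control. Slc17a7, the vesicular glutamate transporter VGLUT1, averaged 224 ± 62.3 against 148 ± 30.3 FPKM, and Ctgf, a matrix protein of subplate neurons, 6.99 ± 2.60 against 3.98 ± 0.38 FPKM. Emx1 missed the criterion without F2 IUO 1 (0.79), and Fezf2 without F2 IUO 1 (1.39), F2 IUO 2 (1.48), F2 IUO 3 (1.68), F2 SAL 3 (1.53) or F2 SAL 4 (1.15). Ctgf missed it without F2 IUO 2 (0.54), F2 IUO 4 (0.59), F2 SAL 1 (0.65) or F2 SAL 3 (0.72), and Slc17a7 without any 1 of 6 libraries (0.44 to 0.58). Emx1, Slc17a7 and Ctgf also missed it in the fit of all 24 libraries.

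The rise was uneven across the cortex list. Other members gave 0.03 for Camkv, 0.45 for Slc30a3 and -0.44 for Lamp5, and 4 of the 22 were below 0. Slc30a3 met the criterion without F2 IUO 3 (0.74), and Lamp5 without F2 IUO 4 (-0.71). The summed level of the list was 455 to 762 FPKM in F2 IUO and 429 to 584 FPKM in F2 SAL, ranges that overlap, and no member was at 0 in any library. Without F2 IUO 1 the list had 3 called rises, without F2 IUO 4 8 rises and 1 fall, and without both 7 rises. With the Y-linked covariate it had 6 rises, and with the mean level of the list itself as a covariate (the cortex covariate) 2, Neurod6 and Nptx1. A list adjusted for its own mean loses rises by construction, so the latter count is no test of the list. Hs3st2, a heparan sulfate sulfotransferase of neurons outside the list, named after its values were seen, was likewise highest in F2 IUO 1 and, among controls, in F2 SAL 2, at 32.5, 22.2, 16.4 and 20.6 FPKM against 8.23, 17.9, 6.79 and 7.68 FPKM, a rise of 1.24 ± 0.31 (limma adjusted p = 0.476). With the cortex covariate its difference was 0.68 and missed the criterion. The part of neighbouring cortex in these rises was not tested.

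A stretch of the Neurod6 promoter is shown because it holds, at 2 places, the E-box CAGATG that bHLH factors of its own family bind. It runs from 118 to 30 bases before the start site, at chr4:86180185-86180273 on the minus strand of GRCr8 (RefSeq), with the E-boxes in capitals.
Neurod6: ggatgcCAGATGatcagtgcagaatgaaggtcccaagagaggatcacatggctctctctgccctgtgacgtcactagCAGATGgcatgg
On either strand, CAGATG was in the 250 bases before the start site of 8.89% of 9464 tested genes with a promoter sequence and 13.7% of all 27457 promoters. Of the 7 cortex genes that rose, 4 had a sequence and 1 of them, Neurod6, held it.

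**Figure D3:**
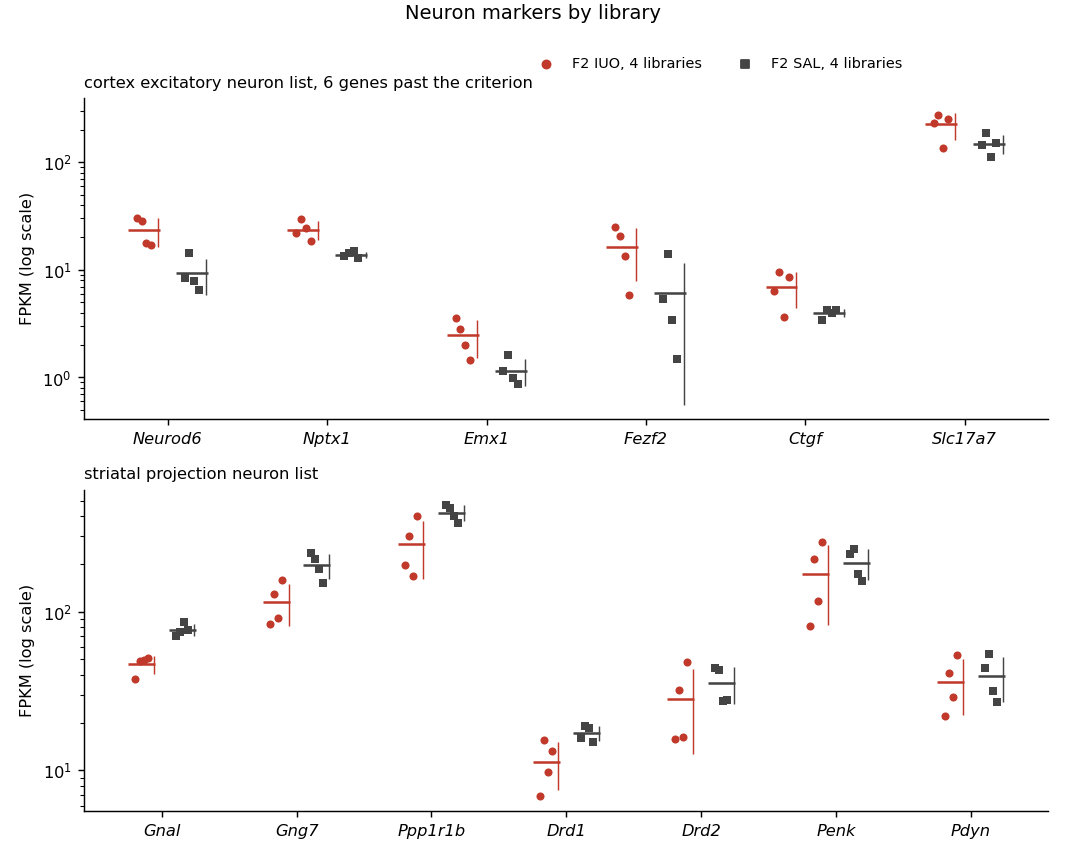
FPKM (log scale) in each of the 4 F2 IUO (red circles) and 4 F2 SAL (grey squares) libraries, with the mean (horizontal line) and SD (vertical line), for 6 cortex list genes past the criterion (top) and 7 striatal projection neuron genes (bottom). Neurod6, Nptx1 and Gnal separate the groups in all 8 libraries, and Drd2, Penk and Pdyn overlap.

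The genes that fell on the striatal projection neuron list, 5 of 29 tested, were Gnal, Gng7, Ppp1r1b, Drd1 and Pde10a. Gnal, the stimulatory G protein alpha subunit that couples D1 and adenosine receptors to adenylyl cyclase, was at 37.8, 48.9, 49.6 and 50.8 FPKM in F2 IUO and 70.0, 74.5, 86.6 and 76.2 FPKM in F2 SAL. No libraries overlapped, and it fell by 0.72 ± 0.12 on the log2 scale (limma adjusted p = 0.344). Gng7, its gamma subunit partner, was at 83.8, 129, 91.2 and 158 FPKM against 235, 214, 185 and 152 FPKM. It fell by 0.79 ± 0.22 (limma adjusted p = 0.483), with F2 IUO 4 just above the lowest control. Gnal and Gng7 met the criterion without each of the 8 libraries and without F2 IUO 1 and 4 together. With the gene-length correction Gnal was at -0.58 and missed it.

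Other members of the list fell with overlapping libraries. Ppp1r1b encodes DARPP-32, the phosphatase inhibitor that integrates dopamine and glutamate signals, and was at 196, 301, 167 and 401 FPKM against 472, 447, 400 and 361 FPKM. It fell by 0.74 ± 0.25 (limma adjusted p = 0.54). Drd1, the D1 dopamine receptor, was at 6.87, 15.5, 9.77 and 13.3 FPKM against 16.1, 19.1, 18.5 and 15.0 FPKM, a fall of 0.65 ± 0.23 (limma adjusted p = 0.542). Pde10a, the phosphodiesterase that breaks down cAMP and cGMP in these neurons, averaged 12 ± 5.27 against 19.1 ± 3.43 FPKM. F2 IUO 1 and 3 were the lowest libraries for Ppp1r1b, and F2 IUO 1 for Drd1 and Pde10a. Ppp1r1b missed the criterion without F2 IUO 1 (-0.62) or F2 IUO 3 (-0.54), and Pde10a without F2 IUO 1 (-0.55) or F2 SAL 1 (-0.64). Drd1 missed it without F2 IUO 1 (-0.43), F2 IUO 3 (-0.60), F2 SAL 2 (-0.60) or F2 SAL 3 (-0.61). Ppp1r1b and Drd1 also missed it with the cortex covariate (-0.63 and -0.59) and with rescaling by the median of ratios (-0.69 and -0.60), and Pde10a with the gene-length correction (-0.54) and in the fit of all 24 libraries.

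Of the 29 tested members of the striatal list 28 were below 0, the 5 called genes among them. Drd2, the D2 receptor of the indirect pathway, averaged 28.1 ± 15.3 against 35.6 ± 9.35 FPKM, a difference of -0.46 ± 0.36 that met the criterion without F2 IUO 4 (-0.77). Penk, which encodes the enkephalins of those cells, averaged 172 ± 89.3 against 203 ± 44.8 FPKM, and Ptpn5, the striatal phosphatase STEP, 88.4 ± 11.8 against 98.7 ± 16 FPKM. The summed level of the list was 954, 1607, 1034 and 1824 FPKM in F2 IUO and 1559 to 2059 FPKM in F2 SAL, so F2 IUO 1 and 3 lay below every control and F2 IUO 2 and 4 within their range. The list had 2 falls without F2 IUO 1, 9 without F2 IUO 4, 3 without both, 5 with the Y-linked covariate, and 3 with the cortex covariate or by the median of ratios. Zfp503, a zinc finger repressor of developing striatum, was at 5.57, 6.91, 6.06 and 4.93 FPKM against 9.55, 9.23, 10.9 and 9.04 FPKM with no overlap, and fell by 0.72 ± 0.14 (limma adjusted p = 0.374). Without F2 IUO 1 and 4 its difference was -0.57, short of the criterion.

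Other parts of cyclic nucleotide and G protein signalling moved in both directions. Pde8b, a phosphodiesterase with high affinity for cAMP, was at 6.11, 8.91, 10.7 and 7 FPKM against 16.4, 12.4, 14.9 and 13.6 FPKM with no overlap, and fell by 0.83 ± 0.19 (limma adjusted p = 0.452), but missed the criterion without F2 IUO 1 and 4 together (-0.54). Of 46 tested G protein signalling genes, Rgs12 rose by 0.58 ± 0.18, and Rgs8 fell by 0.96 ± 0.35. Both are GTPase activators that shorten G protein signals. Adcy4, an adenylyl cyclase of vessels, fell by 1.21 ± 0.50 from a control level of 1.5 ± 0.32 FPKM. Rgs12 lost the criterion without F2 IUO 2 (0.44), F2 SAL 1 (0.55), F2 SAL 3 (0.51) or F2 SAL 4 (0.55), and Rgs8 without F2 IUO 1 (-0.74), F2 IUO 4 (-0.77), F2 SAL 3 (-0.84) or F2 SAL 4 (-0.88). Adcy4 lost it without F2 IUO 2 (-0.78), F2 IUO 4 (-1.15), F2 SAL 1 (-1.22), F2 SAL 2 (-1.13) or F2 SAL 3 (-1.13).

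Among receptors of acetylcholine and monoamines, 2 serotonin receptors fell and none of the 22 tested rose. Htr1b, the inhibitory receptor on axon terminals, including those of striatal neurons, was at 6.25, 5.88, 6.30 and 4.44 FPKM against 11.3, 8.65, 9.57 and 8.14 FPKM. It fell by 0.71 ± 0.17 (limma adjusted p = 0.473). Htr1d, its close relative, was at 0.45, 0.87, 1.34 and 1.43 FPKM against 2.52, 2.63, 2.77 and 2.92 FPKM and fell by 1.43 ± 0.35 (limma adjusted p = 0.476). Neither overlapped between groups, and both met the criterion without each of the 8 libraries. With the cortex covariate Htr1d missed it (-0.83), which left Htr1b as the list's only fall. Htr3a, the serotonin-gated channel of interneurons, fell by 0.90 ± 0.31 from 6.11 ± 1.54 to 3.35 ± 1.54 FPKM, and missed the criterion without F2 SAL 1 (-0.80). Of 15 striatal interneuron genes Cck rose, and Htr3a and Nos1, the neuronal nitric oxide synthase, fell. Nos1 fell by 0.93 ± 0.40 and missed the criterion without F2 IUO 4 (-0.51) or any 1 of 4 other libraries.

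The ion channel genes that met the criterion fell. Of 30 calcium and sodium channel genes 4 did. Cacna1h, the T-type calcium channel Cav3.2, was at 6.23, 8.73, 7.06 and 7.40 FPKM against 13, 11.4, 13.5 and 9.34 FPKM with no overlap, and fell by 0.67 ± 0.16 (limma adjusted p = 0.476). Hcn4, a pacemaker channel, fell by 0.63 ± 0.23, Cacna1e, the R-type calcium channel, by 1.07 ± 0.46, and Ryr3, a calcium release channel of the endoplasmic reticulum, by 0.75 ± 0.33. Of 39 potassium channel genes Kcna5, Kcnh4 and Kcnd3 fell, by 0.79 ± 0.26, 0.60 ± 0.24 and 0.92 ± 0.38, all 3 being voltage-gated. The list medians were -0.24 and -0.12. Cacna1h alone of these 7 genes kept the criterion without each of the 8 libraries, and without F2 IUO 1 and 4 together it missed it (-0.57). Kcna5 missed it without F2 IUO 1 alone (-0.57), and the other 5 without 3 to 6 single libraries each, among them F2 IUO 4 for Hcn4 (-0.55), Cacna1e (-0.70), Ryr3 (-0.63) and Kcnd3 (-0.69), and F2 IUO 3 for Kcnh4 (-0.44). Without F2 IUO 1 and 4 the calcium and sodium list had no fall and the potassium list 1. The calcium and sodium list had 1 fall with the gene-length correction, where Cacna1h (-0.58), Hcn4 (-0.56) and Ryr3 (-0.55) missed the criterion, and 1 with the Y-linked covariate. The potassium list had 1 rise and 2 falls with the length correction, 1 rise and 1 fall with the Y-linked covariate, and 1 fall with the cortex covariate.

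Genes of transmitter release and glutamate or GABA reception were mostly not called. Snap25, a SNARE protein that drives vesicle fusion, was at 441, 625, 537 and 555 FPKM against 376, 387, 237 and 351 FPKM with no overlap, and rose by 0.69 ± 0.17 (limma adjusted p = 0.476). It missed the criterion without F2 SAL 3 (0.53) and in the fit of all 24 libraries. Snap25 and Slc17a7 were the only rises among 30 vesicle release genes, and the list's median was -0.06. Grm8, a presynaptic metabotropic glutamate receptor, rose by 0.59 ± 0.24 from 1.52 to 2.33 FPKM, and Gabrg3, a GABA-A receptor subunit, fell by 0.82 ± 0.33 from 4.21 to 2.46 FPKM. Grm8 missed the criterion without any 1 of 5 libraries (0.48 to 0.63) and Gabrg3 likewise (-0.81 to -0.60). The 24 AMPA, NMDA and kainate receptor genes lay between -0.56 and 0.20, and Dlg4, which encodes PSD-95, was at 246 ± 33.3 and 252 ± 16.1 FPKM.

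Neuropeptide genes and their receptors showed rises more than falls. Sstr2, an inhibitory somatostatin receptor, was at 9.90, 9.02, 7.46 and 8.93 FPKM against 4.42, 5.93, 5.03 and 4.49 FPKM with no overlap. It rose by 0.82 ± 0.15 (limma adjusted p = 0.374) and met the criterion without each library. Cck, which encodes cholecystokinin of cortical and interneuron origin, rose by 0.63 ± 0.25 (174 ± 52.2 against 110 ± 24.6 FPKM), and Ntsr1, a neurotensin receptor, by 1.41 ± 0.55 (2.69 against 1.16 FPKM). Tacr1, the substance P receptor, fell by 0.79 ± 0.33. Cck lost the criterion without any 1 of 6 libraries (0.50 to 0.64) and Tacr1 without 5 (-0.83 to -0.55), and both lost it in the fit of all 24 libraries. Ntsr1 lost it without F2 IUO 1 (1.18), F2 IUO 3 (1.39), F2 SAL 1 (1.07) or F2 SAL 4 (1.10). The list of 38 had 3 rises and 1 fall and a median of 0.14.

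Of 6 tested opioid genes 2 rose, both encoding peptides. Pnoc, the precursor of nociceptin, was at 13.6, 10.8, 13.3 and 7.65 FPKM against 6.27, 6.73, 8.55 and 7.26 FPKM, and rose by 0.62 ± 0.20 (limma adjusted p = 0.536). Pomc, the precursor of beta-endorphin and of melanocortins, was at 4.39, 2.06, 5.38 and 4.21 FPKM against 2.42, 2.33, 1.51 and 2.01 FPKM, and rose by 0.87 ± 0.31 (limma adjusted p = 0.542). In each gene 1 F2 IUO library lay within the control range, F2 IUO 4 for Pnoc and F2 IUO 2 for Pomc. Pnoc lost the criterion without F2 IUO 1 (0.52) or F2 IUO 3 (0.53), and Pomc without F2 IUO 3 (0.70) or F2 SAL 3 (0.73) and in the fit of all 24 libraries. Pdyn, the dynorphin precursor, was at 36.3 ± 13.8 and 39.3 ± 12.4 FPKM.

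The study followed 10 genes in F2 pups, some picked from these libraries and others, among them Hcrtr1, Nptx2 and Pdyn, added for their part in the hypocretin system. Where they were picked here, their direction is no independent evidence. The study measured its genes by RT-PCR, where Pmch, Hcrt, Hba1, Avp, Aqp1 and Agrp differed significantly between the F2 groups. It also reported Hcrtr1 and Nptx2 higher in F2 IUO, and Pdyn higher in F2 IUO and F2 PNO than in controls. The values here are FPKM from sequencing, a different measure. The alpha globin gene the study calls Hba1 is represented here by the rows named Hba-a2. Of the 10, 7 reached the filter here and 1 rose, Hba-a2, in both of its rows. Hcrt, which encodes the hypocretin (orexin) peptides of lateral hypothalamic neurons, was at 9.15, 16.1, 8.61 and 0.45 FPKM in F2 IUO and 0.95, 2.54, 0.92 and 1.31 FPKM in F2 SAL. F2 IUO 1, 2 and 3 lay above every control and F2 IUO 4 below all of them, with a difference of 1.87 ± 0.92 (limma adjusted p = 0.581). Without F2 IUO 4 it was 2.95 and met the criterion. Hcrtr1, the receptor for hypocretin-1, was at 3.15 ± 0.36 and 2.52 ± 0.68 FPKM, a difference of 0.34 ± 0.23, and Hcrtr2 did not reach the filter (0.66 and 0.85 FPKM). Pmch, the melanin-concentrating hormone precursor, was at 0.47, 27.9, 11.5 and 0 FPKM against 0.37, 0, 0.88 and 0.67 FPKM, and Aqp1, a water channel of choroid plexus, was at 11.4 FPKM in F2 IUO 1 and 0.12 to 0.82 FPKM in the other 7 libraries. Neither reached the filter. Avp, the vasopressin gene, ranged from 3.97 to 85.6 FPKM in F2 IUO and from 3.43 to 199 FPKM in F2 SAL. Agrp, Nptx2 and Pdyn gave 0.81 ± 0.63, 0.22 ± 0.26 and -0.14 ± 0.30.

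Among the falls were markers of microglia, the resident immune cells of the brain. P2ry12, the ADP receptor by which resting microglia sense injury, was at 7.08, 7.21, 6.47 and 7.62 FPKM in F2 IUO and 10.3, 14.4, 15.4 and 19.1 FPKM in F2 SAL. The 4 F2 IUO libraries were nearly level and all below the lowest control, and the gene fell by 1.02 ± 0.18 (limma adjusted p = 0.344). Cx3cr1, the fractalkine receptor, was at 12.7, 17.8, 18.2 and 16 FPKM against 29.7, 26.2, 20.7 and 25.3 FPKM with no overlap, and fell by 0.65 ± 0.15 (limma adjusted p = 0.473). P2rx7, an ATP-gated channel, was at 1.63, 1.11, 1.88 and 1.11 FPKM against 4.00, 2.12, 2.16 and 3.3 FPKM, again with no overlap, a fall of 0.95 ± 0.30 (limma adjusted p = 0.527). Selplg, a selectin ligand, was at 4.92, 8.18, 8.94 and 8.17 FPKM against 12.7, 9.41, 11.9 and 20.4 FPKM, and Irf8, a transcription factor needed for microglia, averaged 2.07 ± 0.75 against 3.29 ± 0.58 FPKM.

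Of the 22 tested microglia and macrophage genes 20 were below 0, the 5 called genes among them. The summed level of the list, which is carried by its most abundant members, was 321 to 437 FPKM in F2 IUO and 324 to 452 FPKM in F2 SAL. P2ry12 and P2rx7 met the criterion without each of the 8 libraries and without F2 IUO 1 and 4, but P2rx7 missed it with the Y-linked (-0.90) and the cortex covariate (-0.86). Cx3cr1 missed it without F2 IUO 1 (-0.54) or F2 SAL 1 (-0.58), and Selplg without F2 SAL 4 (-0.60). Irf8 missed it without any 1 of 5 libraries (-0.73 to -0.55). Without F2 IUO 1 and 4 together, or with the Y-linked or the cortex covariate, the list had 3 falls. With the cortex covariate the list median was -0.06, nearer to 0 than the -0.12 over all genes in that fit. With the Y-linked covariate it was -0.36, against -0.002 over all genes. Siglec5, a sialic acid receptor of myeloid cells named after its values were seen, averaged 2.10 ± 0.74 against 3.57 ± 0.63 FPKM, a fall of 0.78 ± 0.26, and missed the criterion without F2 SAL 1 (-0.67). Tifab, an inhibitor of TIFA in innate immune signalling, was at 3.40, 3.17, 3.31 and 2.79 FPKM against 6.55, 5.51, 4.15 and 5.84 FPKM with no overlap, and fell by 0.77 ± 0.18 (limma adjusted p = 0.475). The 18 interferon and antigen presentation genes had none called, and B2m, the light chain of class I molecules, was at 165 ± 33.8 and 154 ± 20.7 FPKM.

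Vessel wall genes fell in the same comparison. Pdgfrb, the PDGF receptor of pericytes, was at 3.59, 2.69, 3.86 and 2.44 FPKM against 5.05, 4.48, 6.04 and 7.42 FPKM with no overlap, and fell by 0.85 ± 0.22 (limma adjusted p = 0.483). Eng, the TGF-beta co-receptor endoglin of endothelium, was at 15.4, 11.3, 16.1 and 12.2 FPKM against 21.8, 17.7, 22.9 and 20.7 FPKM with no overlap, and fell by 0.60 ± 0.15 (limma adjusted p = 0.476). Cspg4, the NG2 proteoglycan shared by pericytes and oligodendrocyte precursors, fell by 0.59 ± 0.18, and Tagln, a smooth muscle actin-binding protein, by 0.89 ± 0.31. Some endothelial genes from outside the list fell too: Cd93 by 0.76 ± 0.28, the sialomucin gene Podxl by 0.81 ± 0.27 and the transcription factor gene Sox7 by 0.64 ± 0.28. They were named after their values were seen and add no independent evidence. Of 135 tested genes annotated to angiogenesis in the files, 4 rose (Rspo3, Ctgf, Nox1, Nov) and 3 fell (Cspg4, Fn1, Col18a1). Cd93 missed the criterion without F2 IUO 4 (-0.57) or F2 SAL 3 (-0.67), Podxl without F2 IUO 4 (-0.57), and Sox7 without any 1 of 7 libraries (-0.72 to -0.51). The list's summed level was 270 to 348 FPKM in F2 IUO and 335 to 359 FPKM in F2 SAL, with F2 IUO 3 alone inside the control range. Pdgfrb and Tagln met the criterion without each of the 8 libraries, but Tagln missed it without F2 IUO 1 and 4 together (-0.66) and with the Y-linked covariate (-0.60). Eng missed it without F2 IUO 2 (-0.51), F2 IUO 4 (-0.55), F2 SAL 1 (-0.58) or F2 SAL 3 (-0.55), and Cspg4 without F2 IUO 1 (-0.57), F2 IUO 4 (-0.49), F2 SAL 1 (-0.52) or F2 SAL 3 (-0.56). The list had 4 falls without F2 IUO 1, 2 without F2 IUO 4, and 3 without both, with the Y-linked covariate, with the gene-length correction or by the median of ratios.

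Connective tissue and oligodendrocyte precursor genes followed on a smaller scale. Fn1, fibronectin, was at 7.33, 8.91, 9.34 and 4.03 FPKM against 12, 10.1, 13.8 and 12.7 FPKM and fell by 0.77 ± 0.25 (limma adjusted p = 0.536), missing the criterion without F2 IUO 4 (-0.50). Slc13a3, a dicarboxylate transporter, fell by 0.78 ± 0.31, and these were 2 of 23 meninges and fibroblast genes. Slc13a3 missed the criterion without F2 IUO 1 (-0.78), F2 IUO 2 (-0.64), F2 SAL 3 (-0.65) or F2 SAL 4 (-0.56). Gpr17, a receptor of precursors about to differentiate, fell by 0.67 ± 0.22 from 46.1 ± 5.94 to 30.0 ± 10.3 FPKM, and missed the criterion without F2 IUO 1 (-0.65), F2 IUO 4 (-0.48) or F2 SAL 3 (-0.60). Mature myelin genes were not called, with Mbp, myelin basic protein, at 743 ± 219 and 876 ± 265 FPKM, nor were astrocyte genes, with Aldoc at 488 ± 44.8 and 441 ± 81.5 FPKM.

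**Figure D4:**
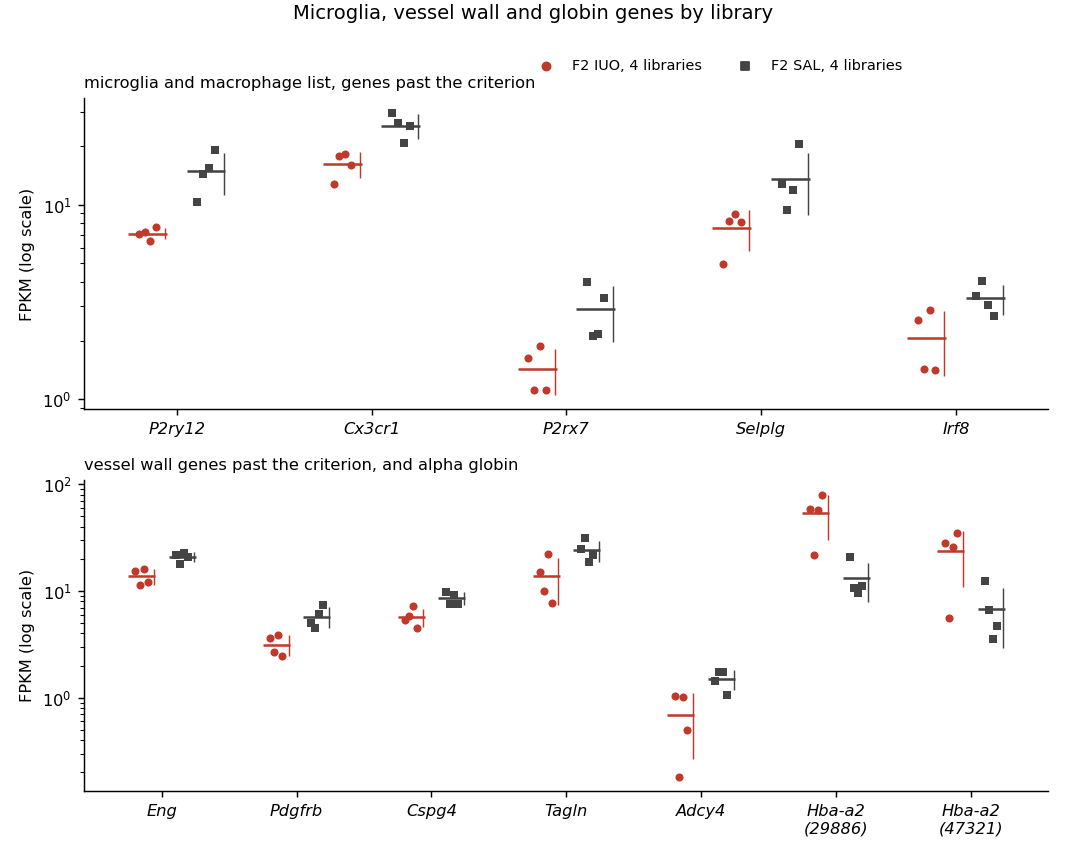
FPKM (log scale) in each of the 4 F2 IUO (red circles) and 4 F2 SAL (grey squares) libraries, with the mean (horizontal line) and SD (vertical line), for the 5 microglia genes past the criterion (top), and for 5 vessel wall genes and both rows named Hba-a2 (bottom, told apart by the last digits of their Ensembl identifiers). P2ry12, Cx3cr1, P2rx7, Selplg, Eng, Pdgfrb, Cspg4 and Adcy4 lie lower in all 4 F2 IUO libraries, and the globin rows lie higher on average.

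Globin transcripts, which come mainly from red cells, moved the other way. The first Hba-a2 row (ENSRNOG00000029886) was at 58.7, 21.7, 56.8 and 80.0 FPKM in F2 IUO and 21.0, 10.7, 9.65 and 11.2 FPKM in F2 SAL. The groups did not overlap, although F2 IUO 2 lay just above F2 SAL 1, and the rise was 1.97 ± 0.39 (limma adjusted p = 0.374). The other Hba-a2 row (ENSRNOG00000047321) was at 28.3, 5.61, 25.6 and 35.0 FPKM against 12.4, 6.65, 3.53 and 4.74 FPKM, a rise of 1.66 ± 0.57 (limma adjusted p = 0.541) that missed the criterion without F2 IUO 1 and 4 together (0.97) and in the fit of all 24 libraries. The alpha globin genes are near-identical copies, so reads may be split between these rows and each value is uncertain. Lcn2, lipocalin 2, rose by 0.69 ± 0.22 (8.43 ± 1.99 against 5.20 ± 1.22 FPKM) and missed the criterion without F2 IUO 4 (0.57) or F2 SAL 3 (0.55). These 3 of the 4 tested genes of the erythroid and blood list rose, and the fourth, Hbb, was at 5.53, 0, 4.69 and 5.38 FPKM against 2.71, 2.65, 0 and 0.81 FPKM and met the criterion without F2 IUO 2 (2.53). Of the list's 14 rows in the files 10 were listed at 0 in at least 1 library, and the list's sum was 42.2 to 136 FPKM in F2 IUO and 19.0 to 47.1 FPKM in F2 SAL. The part of blood content in these rises was not tested.

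The Hba-a2 promoter is shown from its GATA element to its TATA box, the sites that erythroid GATA factors and the basal machinery read at globin genes. It runs from 170 to 17 bases before the start site, at chr10:15829155-15829308 on the minus strand of GRCr8 (RefSeq), with GATAAG and TATAAA in capitals.
Hba-a2: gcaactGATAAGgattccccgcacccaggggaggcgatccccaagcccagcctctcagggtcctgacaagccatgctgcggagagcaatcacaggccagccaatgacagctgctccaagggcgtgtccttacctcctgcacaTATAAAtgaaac
On either strand, GATAAG was in 4.48% and TATAAA in 5.91% of the 250-base stretches before the start sites of the 9464 tested genes with a sequence. The stretches of Hba-a1 and Hba-a2 were the same at 241 of 250 positions.

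Stress, activity and hormone genes were called 1 or 2 at a time. Crhbp, the binding protein of corticotropin-releasing hormone, was at 4.4, 4.19, 3.04 and 3.93 FPKM against 2.47, 2.10, 2.02 and 2.20 FPKM with no overlap. It rose by 0.79 ± 0.19 (limma adjusted p = 0.476) and met the criterion without each library. Hsd11b1, which regenerates active glucocorticoid, rose by 0.54 ± 0.22 but missed the criterion without any 1 of 5 libraries (0.38 to 0.55), and Cryab, a small heat shock protein, rose by 0.59 ± 0.20 and missed it likewise (0.49 to 0.58). Among 28 immediate early genes Nr4a2, an orphan nuclear receptor also expressed in cortex and claustrum, was at 5.49, 17.7, 7.64 and 10.0 FPKM against 3.77, 5.37, 3.97 and 4.74 FPKM with no overlap, and rose by 1.06 ± 0.32 (limma adjusted p = 0.507). Fosl2, an AP-1 subunit, was at 1.64, 0.35, 0.78 and 0.73 FPKM against 2.08, 2.84, 2.56 and 1.42 FPKM and fell by 1.38 ± 0.43 (limma adjusted p = 0.532). Both kept the criterion without each library and lost it with the Y-linked level as a covariate (0.65 for Nr4a2), and Nr4a2 also lost it with the cortex covariate (0.97) and in the fit of all 24 libraries.

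A few genes outside these lists stood among the most abundant or most clearly separated, and were named after their values were seen unless listed by rank below. Nrgn, neurogranin, a calmodulin-binding protein of forebrain dendrites, averaged 1073 ± 269 against 693 ± 239 FPKM and rose by 0.66 ± 0.29, though it missed the criterion without any 1 of 5 libraries (0.44 to 0.60). Gpx4, the glutathione peroxidase that protects membranes from lipid peroxidation, was at 87.5, 154, 65.3 and 162 FPKM against 54.4, 50.8, 50.0 and 56.5 FPKM with no overlap, and rose by 1.05 ± 0.27 (limma adjusted p = 0.476), but missed the criterion with the Y-linked covariate (0.87). Ndufb6, a subunit of respiratory complex I, was at 126, 137, 108 and 198 FPKM against 58.1, 84.5, 49.8 and 94.1 FPKM with no overlap, and rose by 1 ± 0.24 (limma adjusted p = 0.476). Pcp4l1, a small calmodulin-binding protein, was at 77.2, 103, 99.6 and 161 FPKM against 162, 171, 171 and 185 FPKM and fell by 0.69 ± 0.19 (limma adjusted p = 0.483), missing the criterion without F2 IUO 1 (-0.54). Snrpn, an imprinted gene of the spliceosome, rose by 0.77 ± 0.27, and Ddc, the decarboxylase of monoamine synthesis, also on the imprinted list, fell by 0.87 ± 0.38. Snrpn missed the criterion without F2 IUO 4 (0.61), and its difference was 0.24 without F2 IUO 1 and 4. Ddc missed it without any 1 of 6 libraries (-0.97 to -0.50). Of 34 progenitor and cell cycle genes Tyms, thymidylate synthase, fell by 0.83 ± 0.34 and missed the criterion without any 1 of 6 libraries (-0.89 to -0.54). Mitochondrially encoded genes lie outside the 11951, and of 13 of them Mt-atp8 alone met the criterion, with a fall of 0.62 ± 0.19 (limma adjusted p = 0.527).

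By rank of p among called genes without overlap, the leading rises were in Cacybp, Mal2, Nxph3, Tmem178a, Sstr2, Nptx1, Hba-a2, Uck2, Nae1, Neurod6, Cox7a2l2 and Maip1. Cacybp, a calcyclin-binding adaptor of ubiquitin ligases, was at 37.6, 37.2, 38.3 and 41.3 FPKM against 24, 21.5, 22.6 and 27.7 FPKM and rose by 0.69 ± 0.11 (limma adjusted p = 0.344). Nxph3, a secreted ligand of alpha-neurexins, was at 33.7, 33.6, 18.5 and 34.2 FPKM against 11.9, 15.1, 12.7 and 9.58 FPKM and rose by 1.25 ± 0.22 (limma adjusted p = 0.344). Tmem178a, a membrane protein of the endoplasmic reticulum, was at 37.1, 40.0, 29.6 and 34.7 FPKM against 15.5, 25.4, 17.0 and 16.7 FPKM and rose by 0.94 ± 0.17 (limma adjusted p = 0.344). These 3 genes met the criterion without each library. Uck2, a pyrimidine salvage kinase, rose from 5.50 ± 0.57 to 11.1 ± 2.77 FPKM, and Nae1, a subunit of the enzyme that activates NEDD8, from 8.63 ± 0.89 to 13.4 ± 1.28 FPKM. Cox7a2l2, related to a cytochrome oxidase subunit, rose from 294 ± 43.9 to 466 ± 59.2 FPKM, and Maip1, a mitochondrial matrix protein, from 9.69 ± 0.61 to 14.7 ± 1.84 FPKM. Cox7a2l2 met the criterion without each single library, but missed it without F2 IUO 1 and 4 together and with the gene-length correction. Nae1 missed the criterion without F2 IUO 2 (0.57) or F2 SAL 2 (0.57), Maip1 without F2 IUO 2 (0.52) or F2 SAL 1 (0.54), and Mal2, a protein of apical transport that rose by 0.60 ± 0.10, without F2 IUO 1 (0.58), F2 IUO 2 (0.57) or F2 SAL 3 (0.57).

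The leading falls by the same rank were in Slc7a1, Gnal, P2ry12, Rmdn3, Zfp503, Sptb, Pde8b, Htr1b, Cx3cr1, Tifab, Cacna1h and Arl15. Slc7a1, the cationic amino acid transporter that carries arginine and lysine, was at 4.27, 3.69, 4.06 and 1.58 FPKM against 15.5, 14.8, 9.87 and 9.55 FPKM. Its fall of 1.90 ± 0.32 (limma adjusted p = 0.344) was the deepest of the 12. Rmdn3, a tether between mitochondria and endoplasmic reticulum, was at 7.49, 5.92, 5.90 and 4.8 FPKM against 15.6, 14.9, 15.3 and 8.39 FPKM and fell by 1.13 ± 0.22 (limma adjusted p = 0.374). Sptb, beta-spectrin of the membrane skeleton, was at 3.97, 5.68, 6.25 and 5.02 FPKM against 11, 7.41, 11.3 and 9.20 FPKM and fell by 0.88 ± 0.19 (limma adjusted p = 0.44). Arl15, a small GTPase, averaged 1.52 ± 0.50 against 4.00 ± 1.37 FPKM and fell by 1.33 ± 0.32 (limma adjusted p = 0.476). All 4 genes met the criterion without each of the 8 libraries and without F2 IUO 1 and 4.

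The largest fitted differences were in genes listed at 0 in some libraries and carry little weight. Zfp622 was at 7.80, 7.14, 7.09 and 6.93 FPKM in F2 IUO, 3.55 FPKM in F2 SAL 1 and 0 in the other 3 controls. Sccpdh was at 1.10 FPKM in F2 IUO 1, 0 in the other 3, and 19.2, 21.4, 0 and 20.7 FPKM in F2 SAL. Ube2h, a ubiquitin-conjugating enzyme, was not at 0 but had a similar split, with 27.4, 29.6, 26.7 and 23.5 FPKM in F2 IUO, 23.9 FPKM in F2 SAL 1 and 5.78 to 6.74 FPKM in the other controls. Bhmt, which remethylates homocysteine, was at 5.93, 6, 2.23 and 3.57 FPKM against 0.34, 2.15, 0.48 and 0.71 FPKM with no overlap, and met the criterion without each library. In all, 96 of the 11951 genes had a library at 0, 6 of them among the called genes.

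By the function terms written in the files, most terms held few called genes, and the share called varied from term to term. They are to be read against 2.64% called of all tested genes, 0.912% higher and 1.73% lower. The terms too were chosen with earlier results known, and their counts are no test. Of 46 genes of neuropeptide signaling 5 rose (Sstr2, Pnoc, Pomc, Ntsr1, Nppa) and 2 fell (Nmbr, Tacr1), 15.2% called. Of 19 with neuropeptide hormone activity 4 rose (Pnoc, Pomc, Cck, Nppa), 21.1% called. Of 28 with hormone activity 4 rose and 1 fell (17.9%), and of 21 of feeding behavior 1 rose and 3 fell (19.0%). These terms share genes. Of 32 voltage-gated potassium channel genes 4 fell, of 41 annotated to the response to cocaine 4 fell (Htr1b, Htr3a, Drd1, Tiam1), and of 31 to the response to morphine 1 rose (Pcsk1) and 2 fell (Drd1, Tacr1). Of 34 genes of the fear response 1 rose (Cck) and 3 fell (Gng7, Drd1, Cacna1e), and of 24 of heart rate regulation 3 fell (Myh6, Hcn4, Cacna1e). Of 429 sequence-specific transcription factors 1 rose and 13 fell (3.26% called), with a median of -0.17. Of 256 synapse genes 5 rose and 5 fell (3.91%). The terms of myelination, RNA splicing, cholesterol biosynthesis, action potential, oxidative phosphorylation and cilium morphogenesis had no called gene, with 91 tested genes in RNA splicing and only 12 in action potential and 7 in oxidative phosphorylation. Of 18 tested genes behind the study's own F2 terms, a list it drew from these libraries, 6 rose and 4 fell.

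The same genes were read in the F1 generation, where the pups themselves had met oxycodone before birth and through milk, and where IUO and SAL have their own 8 libraries. There the criterion called 111 of the 11951 genes (0.929%), 72 higher (0.602%) and 39 lower (0.326%). The difference between the generations was tested as an interaction over all 16 libraries. No gene passed after adjustment (smallest limma adjusted p = 0.872), and 575 (4.81%) had an unadjusted p under 0.05. Of the cortex list 2 genes rose in F1 and the list median was 0.36, beside 0.43 in F2. Neurod6 was 1.24 ± 0.79 higher in F1 IUO than in F1 SAL, against 1.33 in F2. The striatal projection neuron, microglia and endothelium lists had no called gene in F1, and their F1 medians were 0.03, 0.07 and 0.07. The potassium channel list had 1 fall in F1. Gnal gave -0.19 ± 0.19 in F1, P2ry12 -0.21 ± 0.18, Pdgfrb 0.34 ± 0.24 and Slc7a1 0.36 ± 0.45. The F2 difference lay below the F1 difference by 0.53 ± 0.24 for Gnal, 0.81 ± 0.26 for P2ry12, 1.19 ± 0.34 for Pdgfrb and 2.26 ± 0.60 for Slc7a1, each with a limma adjusted p of 0.872. These genes were named for their falls in F2, so a smaller fall in F1 follows in part from that choice.

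The F2 postnatal lineage (F2 PNO), whose F0 dams were dosed with oxycodone only from birth to weaning, shares its 4 F2 SAL controls with the present comparison, so its values stand beside these ones and are not independent of them. There 366 genes (3.06%) were called, 135 higher (1.13%) and 231 lower (1.93%). Its list medians were -0.23 for cortex, -0.16 for striatal projection neurons, -0.17 for microglia and -0.22 for endothelium, with 1 fall, none, 3 falls and 1 fall. Neurod6 gave 0.11 ± 0.64 in F2 PNO, Nptx1 -0.05 ± 0.50 and Snap25 -0.39 ± 0.29. Gnal gave -0.17 ± 0.11 and Slc7a1 -0.20 ± 0.28. P2ry12 gave -0.70 ± 0.33, Selplg -0.81 ± 0.24, Htr1b -0.83 ± 0.44 and Zfp503 -0.87 ± 0.17. The first Hba-a2 row gave 1.58 ± 0.54, Ndufb6 0.88 ± 0.37 and Cacybp 0.59 ± 0.25.

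**Figure D5:**
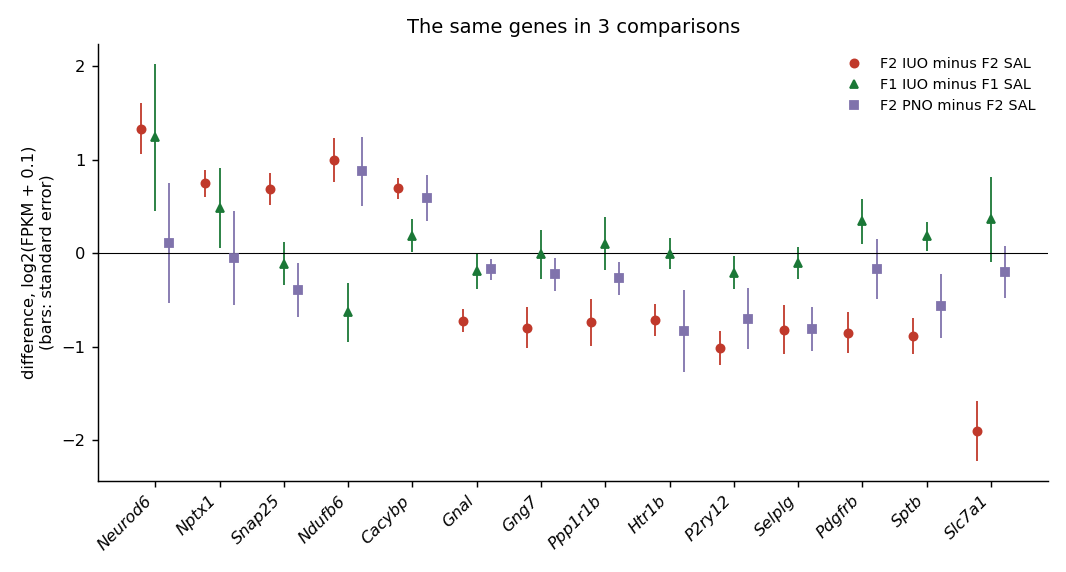
Difference on the log2(FPKM + 0.1) scale with its standard error for 14 genes in F2 IUO minus F2 SAL (red circles), F1 IUO minus F1 SAL (green triangles) and F2 PNO minus F2 SAL (violet squares, sharing the F2 SAL libraries with the red circles). Slc7a1 is at -1.90 in the first comparison, 0.36 in the second and -0.20 in the third, and Neurod6 at 1.33, 1.24 and 0.11.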

How the data were processed

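RNA from P14 NAc was sequenced in 24 libraries of 6 groups (4 each), of which 8 were compared here. Per the labels, the authors used HISAT2, StringTie, SAMtools and edgeR, and the deposited values are FPKM per gene as estimated by StringTie. The genome build and tool versions are not given in the sources used here. Read depth is unknown because no counts were used, so no counting interval is given. The authors' edgeR test needs counts, so here log2(FPKM + 0.1) was fitted with limma 3.58.1 (lmFit, eBayes with trend, two-sided, R 4.3.3) over genes at 1 FPKM or more in at least 4 of 8 libraries, with Benjamini-Hochberg adjustment. Gene type came from RefSeq symbols (1551 of 13574 genes matched none and 71 were of another type). The step was tested on simulated data: with 200 genes shifted by a log2 change of 1, 171 met the criterion and 103 passed adjustment, and with a shift of 2, 199 and 183. Named genes were the 12 rises and 12 falls of smallest p without overlap, the genes the study names in F2, and up to 4 called members (or an abundant one) of each list. The genes, lists and terms were chosen with earlier results of these data known. Alternatives covered pseudocount, filter, fold, rescaling, covariates, a replicate block and leaving out libraries. Leaving out F2 IUO 1 and 4 together, a gene-length correction, and the interaction settings were added after seeing the data. Y-linked genes were left aside except as a covariate. Some genes are not reported here by name.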

Additional observations from a re-analysis of the deposited data

Results flagged for a closer look

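In 294 groups of 4 libraries (147 genes or list sums in 2 groups), Dixon's ratio of the gap to the range passed its 95% value of 0.829 in 21, where chance gives about 1 in 20 groups, or 14.7. Of these, 13 were in F2 IUO and 8 in F2 SAL, and 5 were set by F2 IUO 1.

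In F2 IUO, the high library F2 IUO 1 stood apart for the summed choroid plexus list (ratio 0.998, 12653 against 72.7 FPKM in the next), for the list of genes behind the study's F2 terms (0.997) and for Aqp1 (0.99). Gnal was lowest in F2 IUO 1 (0.85, 37.8 against 48.9 FPKM), and Sccpdh was above 0 there alone (1.0). F2 IUO 3 was the low library for Nxph3 (0.96, 18.5 against 33.6 FPKM) and Nrgn (0.924) and the high one for Avp (0.851, 85.6 against 16.1 FPKM) and for the summed astrocyte (0.836) and DNA methylation and histone deacetylation (0.913) lists. F2 IUO 4 was low for the summed metabotropic glutamate receptors (0.94, 40.7 against 69.8 FPKM) and G protein signalling (0.83), and high for the bombesin family receptor gene Nmbr (0.867, 1.86 against 1.14 FPKM).

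In F2 SAL, F2 SAL 1 stood apart for Ube2h (0.947, 23.9 against 6.74 FPKM), Zfp622 (1.0) and the first Hba-a2 row, ENSRNOG00000029886 (0.867, 21.0 against 11.2 FPKM). F2 SAL 2 was high for Tmem178a (0.842) and Hs3st2 (0.87), F2 SAL 4 low for Rmdn3 (0.902) and Cacna1e (0.887), and Sccpdh was at 0 in F2 SAL 3 alone (0.896).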

How the results depend on the processing

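The count of 316 called genes moved to 511 without a filter and 64 at 2-fold, the 109 rises to 28 at 2-fold, 58 with the cortex covariate and 167 with the gene-length correction, and the 207 falls to 318 with a filter at 0.1 FPKM, 368 without a filter, 36 at 2-fold, 134 with the Y-linked covariate and 136 without F2 IUO 1 and 4. Leaving out 1 library gave 203 (without F2 SAL 3) to 598 (without F2 IUO 3) calls, 88 to 153 rises, 115 to 481 falls and 0 to 2 genes past adjustment, the 2 being Ube2h and Zfp622 without F2 SAL 1. The share of falls, 65.5%, was 55.1% by median of ratios, 53.9% with the length correction, 49.3% without F2 IUO 4, 54.2% without F2 IUO 1 and 4, 54.5% without F2 SAL 1, 76.6% with the cortex covariate and 80.4% without F2 IUO 3. The cause was not tested. Under every other setting named in processing no gene passed adjustment, nor did any in the interaction under either alternative. Of 97 called genes followed by name, 38 kept the criterion without each single library. Same-numbered libraries correlated at -0.10, -0.08, 0.17 and 0.04, so the numbers did not pair them, and the replicate block gave 333 calls, 111 higher and 222 lower, 273 of them shared. Read depth limits low genes by an amount unknown here.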
